A study of Mus musculus with 6 samples.

Results

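The 35 genes described here encode proteins of fatty acid oxidation and ketogenesis in the liver. They were taken by gene name from the 34745 genes of the deposited table, and all 35 were found there. By role, 19 of them act in mitochondrial beta-oxidation, 6 in peroxisomal beta-oxidation and 2 in the making of ketone bodies, 5 act in the uptake, activation, hydrolysis and storage of fatty acids, and the remaining 3 are the regulator Ppara and its known targets Vnn1 and Fgf21. Their RNA was read in 6 liver tumors, 3 from Prmt3f/f mice (replicates 7, 66 and 71) and 3 from Prmt3LKO mice (replicates 92, 93 and 94). Both groups carry the floxed Prmt3 allele, and Prmt3LKO mice also carry Alb-Cre, whose albumin promoter directs deletion to hepatocytes. Which cells of the tumor kept Prmt3 was not measured. Every mouse had received diethylnitrosamine (DEN, a liver carcinogen) at 25 mg/kg when 2 weeks old. From 6 weeks on, 10% carbon tetrachloride (CCl4, a hepatotoxin) was given at 0.5 ml/kg 2 times per week, and livers were taken at 26 weeks. The labels name the groups WT and Prmt3-KO. Nothing states that the 3 tumors of a group came from separate mice, so p-values here measure the spread between these samples.

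Fatty acids that enter a hepatocyte are activated to acyl-CoA and are either stored as triglyceride in lipid droplets or carried into mitochondria as acylcarnitines by the carnitine shuttle. There beta-oxidation removes acetyl-CoA by repeated rounds of dehydrogenation, hydration, a second dehydrogenation and thiolysis, and in the fasted liver much of that acetyl-CoA is turned into ketone bodies for other organs. Peroxisomes shorten very long and branched acyl chains by a parallel set of enzymes, and the fatty acid receptor PPARα, encoded by Ppara, is the main transcriptional activator of both pathways in the liver.

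Between 18440244 and 27976598 reads were counted per tumor, and the 35 genes together took 0.654% to 0.860% of them. A count of 0 would allow a level of up to 0.107 to 0.163 CPM of the total count, taking 3 counts as the limit and covering counting error only. Unless said to be of the total count, CPM are counts scaled to a common library size by TMM normalization. Prmt3, the deleted gene, stood at 6.60, 8.49 and 10.2 CPM in the Prmt3f/f tumors and at 2.80, 2.03 and 3.82 CPM in the Prmt3LKO tumors, in the order of the replicates given above. All 3 Prmt3LKO tumors lay below the others (log2 fold change -1.55, standard error 0.29, 95% interval -2.22 to -0.87), and the adjusted p was 0.592 with edgeR's quasi-likelihood test over 13892 genes. The 12 hepatocyte markers summed to 142912 to 195386 CPM of the total count in Prmt3f/f tumors and to 151035 to 163115 CPM in Prmt3LKO tumors. Alb alone gave 109999 to 160816 CPM of these sums, and single markers such as Tat, from 365 to 1912 CPM, were far less even between tumors. The 12 leukocyte markers summed to 478 to 1024 CPM against 330.3 to 434 CPM. At an unadjusted p under 0.05 (edgeR), 8 of these 12 were lower in Prmt3LKO tumors and 0 higher, beside 4.37% and 2.2% of all genes tested. The 10 kidney tubule markers summed to 3.85 to 4.87 CPM against 9.47 to 14.2 CPM, and 3 of the 4 that passed the filter were higher at that limit. Of the 12 hepatocyte markers, 1 was higher and 0 were lower at that limit. The part of these differences in the results that follow was not tested, and in bulk tissue fewer cells of a type cannot be told apart from less RNA per cell.

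Fatty acid oxidation and ketogenesis genes did not differ between the genotypes past the limits of the test. All 35 passed the filter on low counts, and 0 of 35 passed both limits of a call, an adjusted p under 0.05 and a change of at least 2-fold, where 0% of all 13892 genes tested were called. The smallest adjusted p among them was 0.684, for Vnn1 (edgeR). At an unadjusted p under 0.05, 1 of the 35 genes was lower in Prmt3LKO tumors (Vnn1) and 1 was higher (Acaa1a), beside 4.37% and 2.2% of all genes tested. After TMM scaling, the tumors of the 2 groups did not overlap in 1 gene that was lower (Vnn1) and in 0 genes that were higher, beside 6.6% and 5.56% of all genes. DESeq2, which called 0.256% of the genes it tested at the same limits, also called 0 of the 35, and it had the same 2 genes at an unadjusted p under 0.05.

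The median log2 fold change of the 35 genes, Prmt3LKO minus Prmt3f/f, was -0.0057 and that of all genes tested was 0.00037. Of the 35 values 18 lay below 0 and 17 above, between -1.23 for Acot1 and 0.57 for Acaa1b. In 29 of the 35 genes (82.9%) the difference between the group means was smaller than the standard deviation within groups on the log2 scale, against 68.2% of all genes. The width of the interval shows what 3 tumors against 3 could resolve. The 95% interval lay wholly within a 2-fold change in either direction for 28 of the 35 genes (80%), and for 67.5% of all genes, so for these 28 genes a true difference of 2-fold or more falls outside the interval. The 7 others were Acot2, Ehhadh, Acaa1b, Acsl1, Acot1, Vnn1 and Fgf21.

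**Figure D1:**
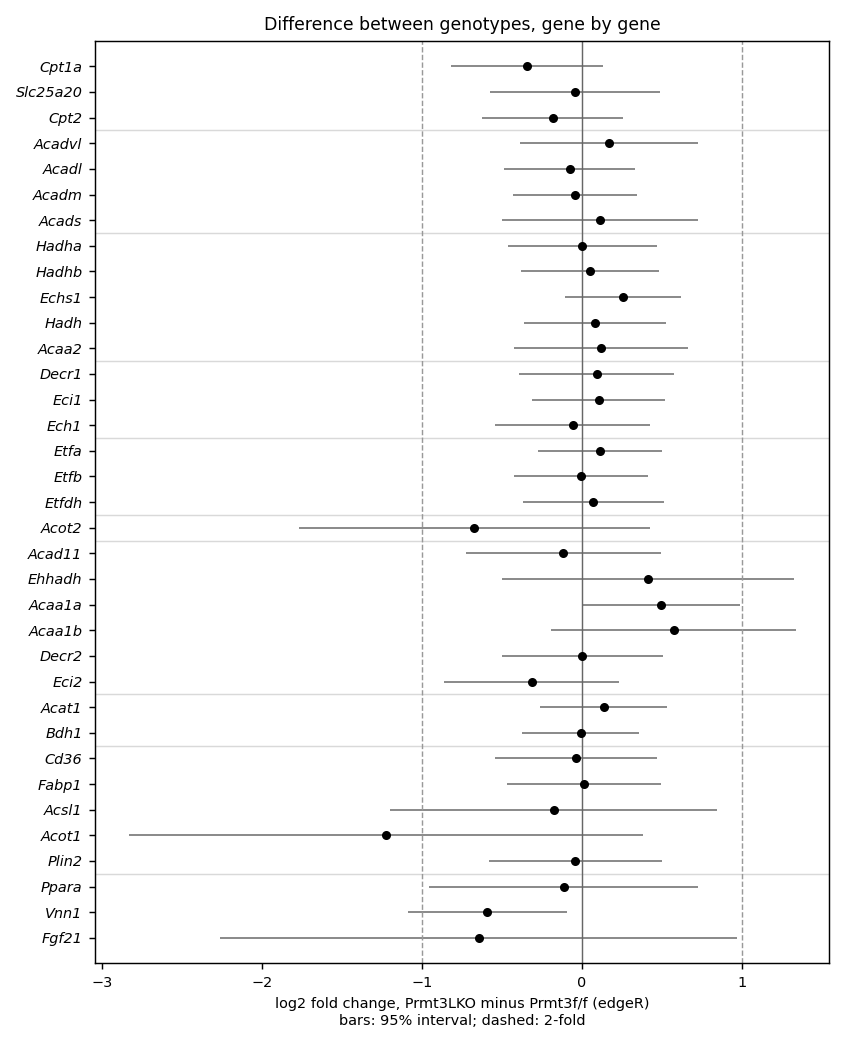
Log2 fold change of each gene, Prmt3LKO minus Prmt3f/f, from the edgeR fit (points) with its 95% interval (bars), with genes in rows by role and dashed lines at 2-fold. The intervals of 28 of the 35 genes lie between the dashed lines, and those of Acot1 and Fgf21 reach furthest below.

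**Figure D2:**
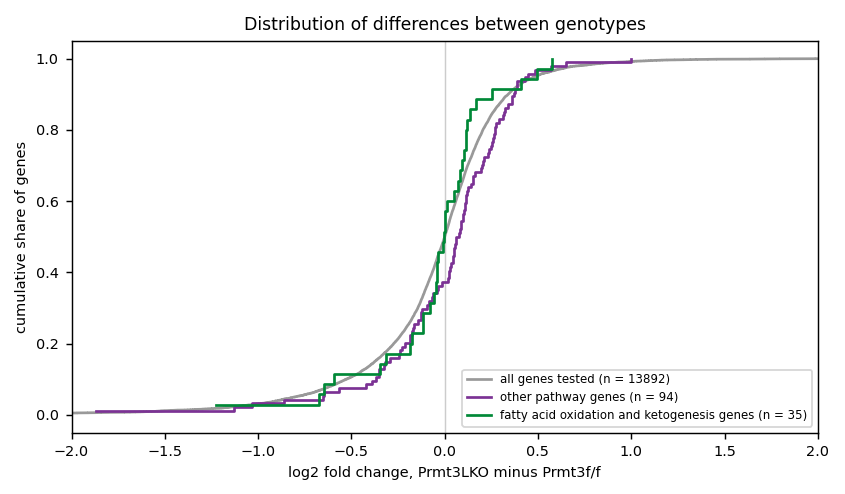
Cumulative share of genes (vertical axis) up to each log2 fold change, Prmt3LKO minus Prmt3f/f (horizontal axis), for the 35 genes (green), 94 other genes of the same pathways (purple) and all 13892 genes tested (grey). The green and grey curves both cross 0 near the middle, with medians of -0.0057 and 0.00037.

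Levels between genes were compared on the FPKM values as deposited, which divide by gene length. Fabp1, the liver fatty acid binding protein, had the highest mean of the 35 at 2189 FPKM, followed by the mitochondrial thiolase Acaa2 at 390 FPKM, the lipid droplet protein Plin2 at 154 FPKM, the peroxisomal thiolase Acaa1b at 140 FPKM and the carnitine shuttle enzyme Cpt1a at 139 FPKM. Acaa1b and Cpt1a did not differ beyond the spread of the tumors, which was 79.1 to 206 FPKM and 118 to 195 FPKM. The lowest were the thioesterase Acot2 at 1.56 FPKM and Hadhb, the beta subunit of the trifunctional protein, at 2.43 FPKM. Hadha, the alpha subunit of the same complex, stood at 24.2 FPKM. In the GENCODE M21 annotation 57.2% of the 75-base words of Hadhb also occur in processed pseudogenes, so its reads may have been split or dropped in counting. The length by which the deposited values were divided is not given in the sources used here. As worked out from counts and FPKM, it was up to 5.39 times that of the longest coding transcript (Echs1), so the order of genes depends on it. It equaled the total exon length in GENCODE M21 for 3 of the 35 genes. With the length of the longest coding transcript in its place, Fabp1 was again first, before Plin2 and Acaa2. The lowest were then Acot2 at 1.56 FPKM, Acot1 at 3.15 FPKM and Hadhb at 10.4 FPKM.

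**Figure D3:**
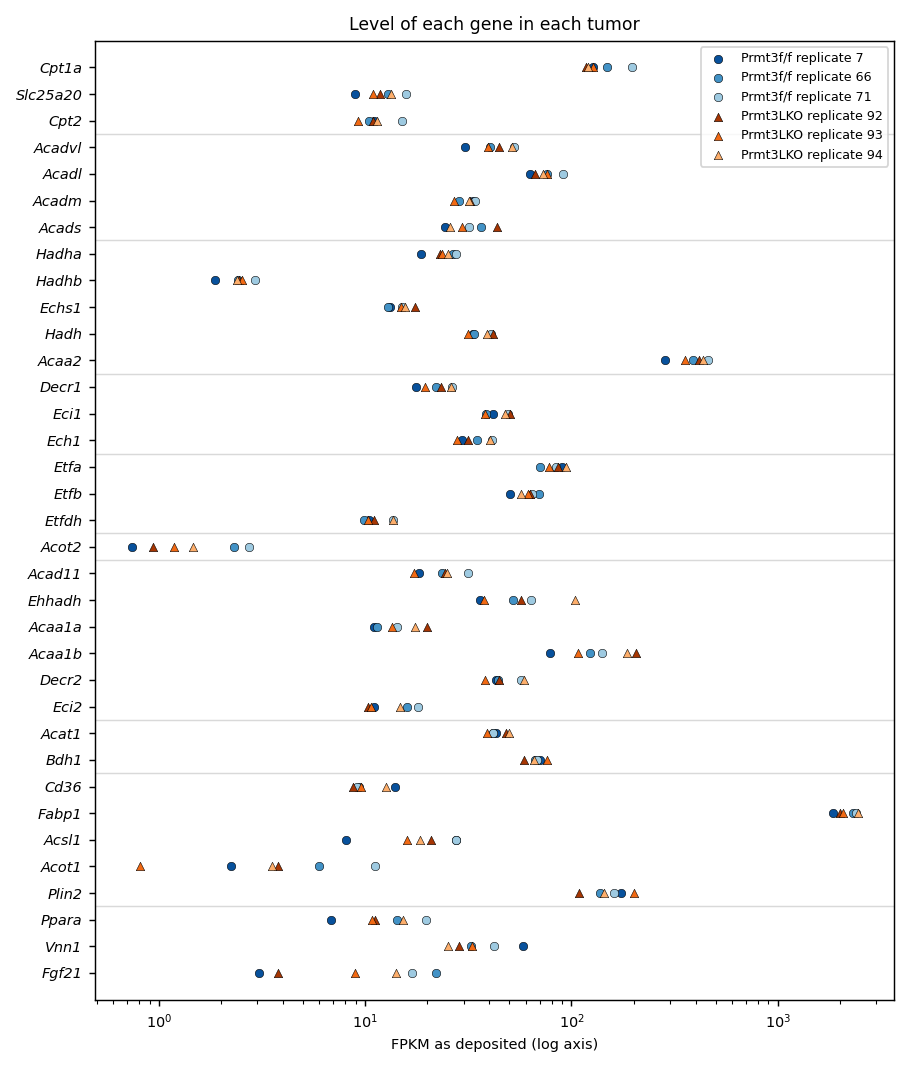
FPKM as deposited (log axis) of each of the 35 genes (rows, grouped by role) in each of the 6 tumors, with blue circles for Prmt3f/f and orange triangles for Prmt3LKO tumors. Levels span from a mean of 1.56 FPKM for Acot2 to 2189 FPKM for Fabp1, and circles and triangles overlap in every row, that of Vnn1 included, where TMM scaling is not applied.

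The 19 mitochondrial genes had a median log2 fold change of 0.05, which lay between -0.07 and 0.13 when single tumors were left out, with 0 at an unadjusted p under 0.05 in either direction and 18 with an interval within 2-fold. Cpt1a (chromosome 19 of GRCm38, 3323301 to 3385732), the enzyme that commits long-chain fatty acids to oxidation, stood at 531, 654 and 827 CPM in Prmt3f/f tumors and at 535, 526 and 524 CPM in Prmt3LKO tumors. Replicates 66 and 71 were the highest, and replicate 7 lay among the Prmt3LKO tumors, whose 3 values spanned a narrow range. The mean was lower in Prmt3LKO tumors, 528 ± 5.68 CPM (SD, n = 3) against 671 ± 148 CPM (SD, n = 3), and the difference did not pass the test (log2 fold change -0.34, standard error 0.21, 95% interval -0.82 to 0.13). The adjusted p was 0.848 with edgeR, and the two-sided exact permutation p was 0.2, where 0.1 is the lowest value possible with 3 tumors against 3. The translocase Slc25a20 and Cpt2, which hands the acyl group back to CoA inside the mitochondrion, had log2 fold changes of -0.04 and -0.18.

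The acyl-CoA dehydrogenases, which start each round of oxidation on very long, long, medium and short chains, lay between -0.08 (Acadl) and 0.17 (Acadvl) on the log2 scale. Acadl had the highest FPKM of the 4 as deposited. With the length of the longest coding transcript, Acadm at 99.8 FPKM and Acadvl at 96.6 FPKM stood above Acadl at 79.0 FPKM. Acadl stood at 125, 158 and 183 CPM in Prmt3f/f tumors and at 142, 149.6 and 150.03 CPM in Prmt3LKO tumors. The Prmt3LKO values sat close together inside the range of the Prmt3f/f tumors (log2 fold change -0.08, standard error 0.18, 95% interval -0.49 to 0.33). Acadm, which acts on medium chains, ran from 170.4 to 222 CPM over all 6 tumors, and Acads, which acts on short chains, from 72.6 to 140.02 CPM. Exons of Acadvl overlap those of Dvl2 on the opposite strand over 42.9% of their length, and the use of strand in counting is not given in the sources used here.

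Of the enzymes of the later steps, Acaa2, the thiolase that releases acetyl-CoA, had the highest level. It stood at 416, 604 and 686 CPM in Prmt3f/f tumors and at 666, 519.8 and 666 CPM in Prmt3LKO tumors. The lowest value was that of Prmt3f/f replicate 7, the next that of Prmt3LKO replicate 93, and the groups overlapped (log2 fold change 0.12, standard error 0.23, 95% interval -0.43 to 0.66). The subunits of the trifunctional protein, Hadha and Hadhb, gave values of 0.0028 and 0.05, and the short-chain enzymes Echs1 (enoyl-CoA hydratase) and Hadh (3-hydroxyacyl-CoA dehydrogenase) gave 0.25 and 0.08. The value of Echs1 was the largest above 0 among the mitochondrial genes, and its exact permutation p was 0.2 with 3 tumors against 3.

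The auxiliary enzymes Eci1, Decr1 and Ech1, which handle double bonds of unsaturated fatty acids, lay between -0.06 and 0.10. Eci1 stood at 44.3, 42.9 and 52.8 CPM and at 58.2, 39.8 and 52.6 CPM in the 2 groups, with a Prmt3LKO tumor at each end of the range. The electron transfer flavoprotein subunits Etfa and Etfb and their oxidoreductase Etfdh, which pass electrons from the dehydrogenases to the respiratory chain, gave 0.11, -0.01 and 0.07. Etfa ran at 191, 157 and 181 CPM in Prmt3f/f tumors and at 199, 164 and 210.1 CPM in Prmt3LKO tumors, an overlap on both sides. Etfb shares 66.3% of its 75-base words with the read-through gene Gm45233, so its count is uncertain.

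The 6 peroxisomal genes had a median log2 fold change of 0.21 with 4 of 6 above 0, where 50.1% of all genes lay above 0. At an unadjusted p under 0.05, 1 of the 6 was higher in Prmt3LKO tumors, beside 2.2% of all genes, and no difference between role groups was tested. Without Prmt3LKO replicate 94 that median was -0.13, and without replicate 93 it was 0.41. The higher gene was Acaa1a (chromosome 9 of GRCm38, 119339676 to 119350299), a peroxisomal 3-ketoacyl-CoA thiolase, with 81.1, 87.9 and 106 CPM in Prmt3f/f tumors and 158, 97.4 and 133 CPM in Prmt3LKO tumors. Replicates 92 and 94 were the highest of the 6, and replicate 93 lay below Prmt3f/f replicate 71. The log2 fold change was 0.50 (standard error 0.21, 95% interval 0.0064 to 0.99), with an unadjusted p of 0.0477 and an adjusted p of 0.755 in edgeR. Over 3 tumors against 3, the exact permutation p was 0.2.

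Its close copy Acaa1b (chromosome 9, 119148023 to 119157093), also a peroxisomal thiolase and the peroxisomal gene with the highest FPKM, had the same order of tumors at the top. It stood at 174, 287 and 313 CPM in Prmt3f/f tumors and at 492, 233 and 426 CPM in Prmt3LKO tumors. Replicates 92 and 94 lay above all others, and replicate 93 lay between the Prmt3f/f tumors (log2 fold change 0.57, standard error 0.33, 95% interval -0.19 to 1.34). The adjusted p was 0.834 with edgeR, and the exact permutation p was 0.3.

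The sequences of the pair are shown because reads of one can be taken for the other. The coding parts are both 1272 bases long and 96.5% identical, with an identical run of up to 327 bases, longer than a read pair end of 150 bases. Of the 75-base words of their exons, 27.3% of Acaa1a and 37.8% of Acaa1b occur in the other gene or, for Acaa1b, in Dlec1 as well. The first 150 bases of each coding sequence, 5′ to 3′ from GENCODE M21 transcripts on GRCm38, differ at 6 bases, which are printed in capitals:
Acaa1a: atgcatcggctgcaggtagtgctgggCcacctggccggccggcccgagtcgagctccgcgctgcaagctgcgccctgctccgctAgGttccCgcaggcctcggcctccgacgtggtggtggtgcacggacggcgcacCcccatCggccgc
Acaa1b: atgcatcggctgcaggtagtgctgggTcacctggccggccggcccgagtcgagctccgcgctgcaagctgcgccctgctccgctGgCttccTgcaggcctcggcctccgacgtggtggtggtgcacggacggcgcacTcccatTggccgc

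Ehhadh, the peroxisomal bifunctional enzyme, had its highest tumor at 3.01 times its lowest, with 105, 161 and 189.9 CPM in Prmt3f/f tumors and 181, 109 and 317 CPM in Prmt3LKO tumors. Its highest value, in replicate 94, and its second lowest, in replicate 93, were both in Prmt3LKO tumors (log2 fold change 0.41, standard error 0.39, 95% interval -0.50 to 1.32). Decr2, a reductase for unsaturated chains, and Acad11, an acyl-CoA dehydrogenase, gave 0.0017 and -0.12. Eci2, an enoyl-CoA isomerase, had the lowest value of the group at -0.32 (standard error 0.24), and it did not pass the test.

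**Figure D4:**
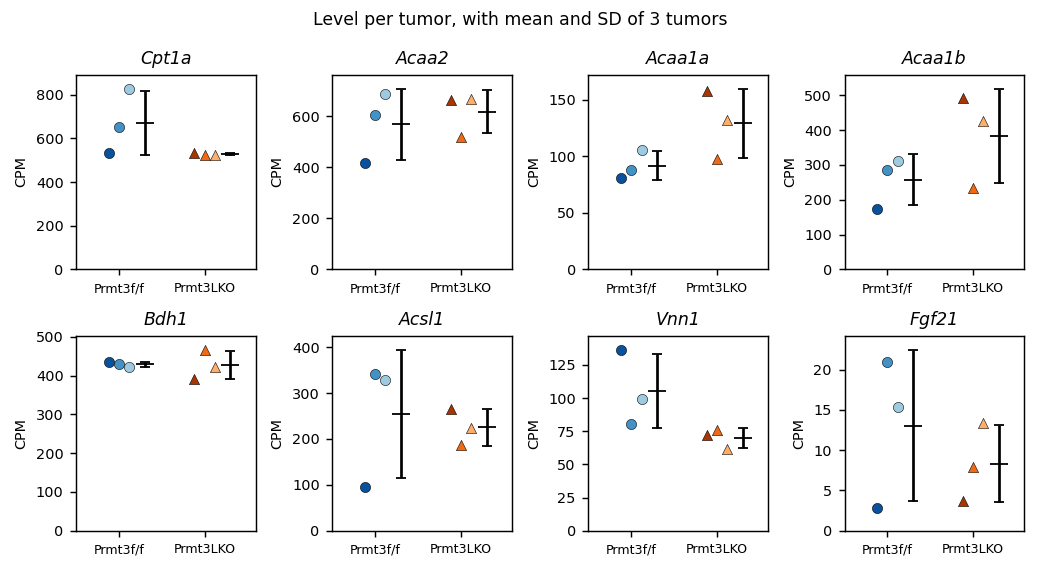
TMM-scaled CPM of 8 genes in each tumor (points, from left to right replicates 7, 66 and 71 of Prmt3f/f and 92, 93 and 94 of Prmt3LKO), with the mean and SD of 3 tumors beside them, on axes that start at 0. The groups overlap in 7 panels, and in that of Vnn1 every Prmt3LKO tumor lies below every Prmt3f/f tumor.

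The 2 ketogenic genes had a median log2 fold change of 0.06, and 0 of them had an unadjusted p under 0.05. Bdh1, which interconverts acetoacetate and 3-hydroxybutyrate, stood at 435, 431 and 423 CPM in Prmt3f/f tumors and at 392, 465 and 423 CPM in Prmt3LKO tumors. Its highest tumor was 1.19 times its lowest, the smallest such ratio of the 35 genes, and its highest and lowest values were both in Prmt3LKO tumors (log2 fold change -0.0089, standard error 0.16, 95% interval -0.38 to 0.36). Acat1, the mitochondrial acetoacetyl-CoA thiolase, stood at 179, 182 and 175 CPM and at 217, 159 and 214 CPM. Replicates 92 and 94 were above all Prmt3f/f tumors and replicate 93 was below them (log2 fold change 0.14, standard error 0.17, 95% interval -0.26 to 0.53), and the exact permutation p was 0.4 for 3 tumors against 3.

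The 5 genes of uptake, activation, hydrolysis and storage had a median log2 fold change of -0.04, and 0 of them had an unadjusted p under 0.05. Fabp1, which carries fatty acids through the cytosol, stood at 999, 1318 and 1308 CPM in Prmt3f/f tumors and at 1171, 1106 and 1374 CPM in Prmt3LKO tumors. The groups overlapped throughout, and the interval of the difference was -0.47 to 0.49. Plin2, which coats lipid droplets, ran from 599 to 1012 CPM with its lowest and its highest value both in Prmt3LKO tumors, and the fatty acid receptor Cd36 ran from 75.1 to 113 CPM, with log2 fold changes of -0.04 and -0.04.

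The promoter of Fabp1 is shown because it alone among the 33 promoters searched for these genes held a 13-base pattern of the kind PPARα is known to bind. That pattern is a direct repeat of 6 letters with 1 base between the copies. RefSeq promoters, from 250 bases before to 50 after the start site on GRCm38.p6, were at hand for 31 of the 35 genes, 33 promoters in all. The exact repeat of AGGTCA, any 1 base and AGGTCA again, searched on both strands, was in 0 of the 33 and in 13 of 32851 promoters (0.0396%). The looser form with AGGNCA in both places, which includes the first, was in 1 of the 33 and in 0.381% of all. That match lies on the minus strand 67 bases before the start site of Fabp1, where it reads AGGCCATAGGTCA, and is printed in capitals as it stands on the plus strand of chr6:71199629-71199928, 5′ to 3′:
Fabp1 promoter: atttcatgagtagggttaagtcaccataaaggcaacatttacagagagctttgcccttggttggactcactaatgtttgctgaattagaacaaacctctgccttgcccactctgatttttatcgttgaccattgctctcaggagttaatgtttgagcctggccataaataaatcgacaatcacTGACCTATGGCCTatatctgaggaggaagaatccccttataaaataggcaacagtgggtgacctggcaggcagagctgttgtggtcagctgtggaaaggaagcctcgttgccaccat

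A match to these letters is a description of the sequence, and the absence of one in these windows says nothing about binding elsewhere.

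Acsl1, the main acyl-CoA synthetase of liver, and the thioesterases Acot1 and Acot2, which split acyl-CoA in cytosol and mitochondria, spread over several-fold between tumors of 1 group. Acsl1 stood at 94.4, 341 and 328 CPM in Prmt3f/f tumors and at 265, 186 and 225 CPM in Prmt3LKO tumors. Prmt3f/f replicate 7 was the lowest of the 6 and the other Prmt3f/f tumors were the highest (log2 fold change -0.18, standard error 0.44, 95% interval -1.20 to 0.85). Acot1 had the largest difference of the 35 genes in either direction when all 6 tumors were used, from counts of 73, 205 and 488 in Prmt3f/f tumors and 108, 27 and 111 in Prmt3LKO tumors, or 3.37, 9.56 and 17.2 CPM against 6.17, 1.22 and 5.58 CPM. The lowest value was in Prmt3LKO replicate 93, the next in Prmt3f/f replicate 7, and the groups overlapped (log2 fold change -1.23, standard error 0.69, 95% interval -2.83 to 0.38). The adjusted p was 0.828 with edgeR, and the exact permutation p was 0.4. Without Prmt3f/f replicate 71 the log2 fold change was -0.59, smaller in size than those of Acaa1b (0.74), Vnn1 (-0.63), Acaa1a (0.61) and Ehhadh (0.60), without Prmt3LKO replicate 93 it was -0.78 and without Prmt3f/f replicate 7 it was -1.65. Acot2 stood at 1.57, 5.18 and 5.87 CPM against 2.17, 2.48 and 3.27 CPM, from 34 to 167 counts, with replicates 66 and 71 above the rest and replicate 7 below (log2 fold change -0.67, standard error 0.47, 95% interval -1.77 to 0.42), and its exact permutation p was also 0.4.

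Acot1 and Acot2 too are near copies. Over 1236 aligned coding bases they are 95.3% identical, and 26.4% and 21.2% of their 75-base words occur in each other or in Acot3 and Acot5. The first 150 bases of the Acot1 coding sequence and the stretch of Acot2 that aligns with them, bases 124 to 273, differ at 13 bases, printed in capitals (5′ to 3′, GENCODE M21 transcripts on GRCm38):
Acot1: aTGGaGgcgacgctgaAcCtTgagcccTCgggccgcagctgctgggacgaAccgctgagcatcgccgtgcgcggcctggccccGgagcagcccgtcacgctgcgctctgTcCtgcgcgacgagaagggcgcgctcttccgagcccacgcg
Acot2: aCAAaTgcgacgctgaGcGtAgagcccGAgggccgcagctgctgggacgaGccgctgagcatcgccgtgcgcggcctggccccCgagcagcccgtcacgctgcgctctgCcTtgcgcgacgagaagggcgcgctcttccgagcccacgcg

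Ppara itself and its secreted or surface targets had log2 fold changes below 0 in 3 of 3 genes, where 49.9% of all genes lay below 0. Their median was -0.59. The genes of the oxidation pathways that PPARα activates did not share this direction, with 11 of 19 mitochondrial and 4 of 6 peroxisomal genes above 0. Among the latter were Acaa1b (0.57), Acaa1a (0.50) and Ehhadh (0.41). Among other genes of the pathways listed as PPARα targets, 14 passed the filter, with 10 below 0, 4 above and a median of -0.19. Ppara stood at 40.3, 88.6 and 117 CPM in Prmt3f/f tumors and at 71.4, 62.5 and 93.03 CPM in Prmt3LKO tumors. The lowest and the highest value were both in Prmt3f/f tumors (log2 fold change -0.12, standard error 0.36, 95% interval -0.96 to 0.72). The direction of this value was not stable, at 0.013 with limma-voom and 0.23 without Prmt3f/f replicate 71.

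Vnn1 (chromosome 10 of GRCm38, 23894688 to 23905343), a surface pantetheinase that splits pantetheine into pantothenic acid and cysteamine, was the single gene of the 35 whose groups did not overlap. It stood at 136, 80.5 and 99.6 CPM in Prmt3f/f tumors and at 72.2, 76.1 and 61.5 CPM in Prmt3LKO tumors. The highest Prmt3LKO value, in replicate 93, was close under the lowest Prmt3f/f value, in replicate 66, and replicate 7 was well above the rest. The means were 105 ± 28.2 CPM and 70.0 ± 7.57 CPM (SD, n = 3 each; log2 fold change -0.59, standard error 0.21, 95% interval -1.09 to -0.09). The unadjusted p was 0.0255 and the adjusted p 0.684 with edgeR, and the exact permutation p was 0.1, the lowest value possible. Without TMM scaling, and likewise on the deposited FPKM, replicate 93 lay above replicate 66 (32.8 against 32.5 FPKM) and the groups overlapped. The difference did not pass the correction over all genes, and non-overlap downward was found in 6.6% of them.

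Fgf21, a hormone that the fasted liver secretes, ranged over 7.58-fold between tumors, from counts of 60, 450 and 438 in Prmt3f/f tumors and 65, 176 and 265 in Prmt3LKO tumors. These are 2.77, 21.0 and 15.4 CPM against 3.71, 7.94 and 13.3 CPM. Prmt3f/f replicate 7 was the lowest, Prmt3LKO replicate 92 came next and replicates 66 and 71 were the highest (log2 fold change -0.65, standard error 0.69, 95% interval -2.26 to 0.97), and the exact permutation p was 0.7 with 3 tumors against 3.

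Much of the spread among the 35 genes was between tumors of the same genotype. Prmt3f/f replicate 7 was the lowest of the 6 tumors in 18 of the 35 genes, where it was the lowest in 23.6% of all genes tested, and Prmt3LKO replicate 93 was the lowest in 11, against 15.7% of all genes. These 2 tumors, 1 of each genotype, were together the lowest pair in 16 of the 35 genes (45.7%), in 5 of the 6 peroxisomal genes, in 36 of 94 other genes of the pathways (38.3%) and in 11.5% of all genes. The 16 genes were Slc25a20, Acadvl, Hadha, Hadh, Acaa2, Decr1, Ech1, Acad11, Ehhadh, Acaa1b, Decr2, Eci2, Fabp1, Acsl1, Acot1 and Ppara. This pairing was picked out after the values were seen and has no test.

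On the log2 scale, relative to the mean of the 6 tumors, the mean level of the 35 genes was -0.33, 0.10 and 0.28 in Prmt3f/f replicates 7, 66 and 71 and 0.04, -0.24 and 0.15 in Prmt3LKO replicates 92, 93 and 94. The peroxisomal genes spread most of the 3 enzyme groups, at -0.45, -0.01 and 0.23 against 0.21, -0.38 and 0.40. The mitochondrial genes had the same 2 tumors at the bottom, at -0.29, 0.05 and 0.24 against 0.09, -0.18 and 0.09, while the 2 ketogenic genes stayed within -0.06 and 0.09. Replicates 7 and 93 were also the lowest pair in 5 of the 12 hepatocyte markers (Tat, Cps1, Ass1, Arg1 and Pck1), in 2 of 7 endothelial and 1 of 9 stellate cell and fibroblast markers, and in 0 of the 12 leukocyte, 6 cholangiocyte and 10 kidney tubule markers. Tat, which breaks down tyrosine, was at 365 and 389 CPM of the total count in replicates 7 and 93 and at 1241 to 1912 CPM in the other tumors. Cps1, the entry enzyme of the urea cycle, was at 986 and 1203 CPM against 2113 to 3013 CPM. Pck1, an enzyme of glucose production, was at 1118 and 604 CPM against 2390 to 4062 CPM. The hepatocyte markers Alb, Ttr, Apoa1, Apoc3, Serpina1c, Hnf4a and Tdo2 did not have this pair lowest. Apoa1 was highest in replicate 7 at 20694 CPM, and Apoc3 was highest in replicate 93 at 1454 CPM. Alb stood at 135167 and 135465 CPM in replicates 7 and 93, inside its range of 109999 to 160816 CPM. Hnf4a ran from 648 to 762 CPM over the 6 tumors. Car3, which stands in the list of adipocyte markers and which liver expresses too, was at 63.5, 189.8 and 317 CPM in Prmt3f/f tumors and at 347 CPM, 117 CPM and 400.5 CPM in Prmt3LKO tumors, with replicates 7 and 93 again lowest, and the defining adipocyte markers Adipoq and Lep were at 0 in all 6. Replicate 7 alone stood apart in Spp1, a cholangiocyte marker, at 4196 CPM against 182 to 955 CPM in the other tumors. The rest of that list did not set it apart. Krt7 was highest there by a small margin, at 3.28 CPM against 0.986 to 3.01 CPM elsewhere. Krt19, Epcam, Sox9 and Cftr were each higher in another tumor. Sox9 was at 17.3 CPM in replicate 7 and at 26.3 CPM in Prmt3f/f replicate 66. The part of cell makeup in this order was not tested.

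**Figure D5:**
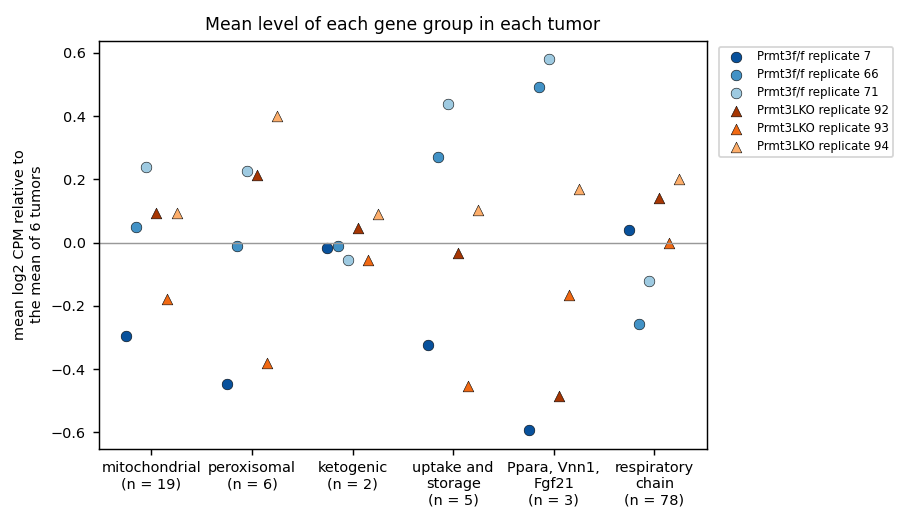
Mean log2 CPM of each gene group in each tumor, relative to the mean of the 6 tumors (vertical axis), for 5 role groups of the 35 genes and for 78 nuclear respiratory chain genes, with circles for Prmt3f/f and triangles for Prmt3LKO tumors. Prmt3f/f replicate 7 and Prmt3LKO replicate 93 are the lowest pair for the mitochondrial, peroxisomal and uptake and storage groups, and the respiratory chain genes do not follow that order.

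The comparison between genotypes moved when either tumor was left out. Without Prmt3f/f replicate 7, 6 of the 35 genes were lower in Prmt3LKO tumors at an unadjusted p under 0.05, beside 4.91% of all genes tested, and 0 were higher. They were Acot2 (log2 fold change -1.07), Acsl1 (-0.58), Cpt1a (-0.49), Acot1 (-1.65), Eci2 (-0.52) and Fgf21 (-1.13), and the smallest adjusted p was 0.462 (edgeR). Vnn1 was not among these 6, with an unadjusted p of 0.0566 in edgeR and a log2 fold change of -0.37. The groups did not overlap downward in 9 of the 35 genes, beside 13.4% of all genes. Without Prmt3LKO replicate 93, 2 genes were higher at an unadjusted p under 0.05, Acaa1a (0.67) and Acaa1b (0.83), beside 2.21% of all genes, and 5 genes did not overlap upward (Echs1, Etfa, Acaa1a, Acaa1b and Acat1), beside 10.7%. No gene of the 35 was called in either case. Leaving out a tumor leaves 2 in its group, so these values rest on fewer samples than those above. Prmt3f/f replicate 7 and Prmt3LKO replicate 93 were singled out because they were the lowest in 18 and 11 of these same 35 genes. Leaving out the lowest tumor of a gene moves its log2 fold change in a known direction. The counts without them follow in part from that choice, so the shares of all genes are not a like comparison.

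Of 98 other genes of the same pathways, 94 passed the filter, and their median log2 fold change was 0.07. At an unadjusted p under 0.05, 2 of the 94 were lower in Prmt3LKO tumors (2.13%) and 5 were higher (5.32%), beside 4.37% and 2.2% of all genes, and 0 were called. The lower pair were Cpt1b, the muscle form of the shuttle enzyme, with a log2 fold change of -1.87 at levels of at most 2.68 CPM, and Pdk4, a kinase that restrains pyruvate oxidation and a known PPARα target. Pdk4 stood at 7.02, 20.1 and 26.2 CPM in Prmt3f/f tumors and at 9.32, 8.71 and 8.09 CPM in Prmt3LKO tumors, so that replicate 7 lay below all Prmt3LKO tumors (log2 fold change -1.03, standard error 0.42, 95% interval -2.01 to -0.05). Without replicate 7 its log2 fold change was -1.42, with an adjusted p of 0.218 in edgeR. Replicate 7 was the lowest tumor for Pdk4, so leaving it out could only move the value further below 0.

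The higher genes were Pparg, Bdh2, Fabp5, Pex5 and Esrra, and in each the groups did not overlap, as in 6 of the 94 genes (6.38%) and in 5.56% of all genes. Pparg, the receptor that drives fat storage, stood at 7.34, 5.04 and 5.52 CPM in Prmt3f/f tumors and at 11.6, 15.1 and 9.05 CPM in Prmt3LKO tumors (log2 fold change 1.0, standard error 0.25, 95% interval 0.43 to 1.57), with an adjusted p of 0.592 in edgeR. The others had log2 fold changes of 0.57 for Bdh2, a dehydrogenase of the ketone body family, 0.45 for the fatty acid binding protein Fabp5, 0.39 for Pex5, the receptor that imports proteins into peroxisomes, and 0.38 for Esrra, a receptor that activates mitochondrial genes. None of the 5 passed the correction over all genes.

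Another set of nuclear genes for mitochondrial proteins, 78 subunits of the respiratory chain and ATP synthase, is given beside them. Its median log2 fold change was 0.20, with 71 of 78 above 0 (91.0%), where the 19 mitochondrial oxidation genes had 11 above 0. At an unadjusted p under 0.05, 15 of the 78 were higher in Prmt3LKO tumors (19.2%) and 0 were lower, beside 2.2% and 4.37% of all genes, and 0 were called. The genes of both sets share libraries and are not independent, and the difference between the sets was not tested.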

How the data were processed

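RNA of 6 liver tumors was sequenced as paired-end reads. According to the processing notes of the submitters, bcl2fastq 2.19, HISAT2 2.0.4 and StringTie 1.3.0 were used with GRCm38, while the counting tool, annotation release and use of strand are not given in the sources used here. The authors deposited raw counts per gene, which are not normalized, and FPKM values, which divide a count by gene length and library total. Of 34745 genes, 14468 had no count. For symbols with more than 1 identifier, the one with the largest total was used.

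The filter filterByExpr (minimum count 10, minimum total 15) kept 13892 genes. On these, edgeR 4.0.16 (R 4.3.3) ran its quasi-likelihood test with TMM scaling, and p-values were adjusted by the Benjamini-Hochberg procedure. A call needed an adjusted p under 0.05 and a ratio of 2 or more, or of 0.5 or less. These are the limits of the study, whose text names no test across genes. At them the paper reports genes changed in both directions, while edgeR here called none. The reason for that difference was not tested. Standard errors in edgeR were derived from the log2 fold change and the F statistic of the test, and the 95% intervals from these with a t distribution. Log2 CPM per tumor (prior count 2) entered exact two-sided permutation tests over 3 against 3 tumors. The 35 genes and all other lists were chosen with earlier results of these data known.

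Per-tumor values, standard errors and permutation tests are given for genes at an unadjusted p under 0.05, genes whose groups do not overlap, the gene with the highest FPKM in each role, the 3 largest differences, and Cpt1a, Ppara, Acat1, Bdh1 and Fgf21. Of other pathway genes, those at an unadjusted p under 0.05 are named. Alternatives were DESeq2 1.42.0, limma-voom (limma 3.58.1), FPKM with a pseudocount of 1, no TMM scaling, a filter of 1 count in all, a filter of 1 CPM on average, and leaving out single tumors. The fit was tested on simulated counts. Total counts of 18440244 to 27976598 limit counting error, and the number of tumors limits precision. Shared 75-base words were counted against GENCODE M21 transcripts, an annotation of GRCm38 in which 25 of the 35 genes had the coordinates of the deposited table. Promoters are from RefSeq. Protein sequences were not used here.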

Additional observations from a re-analysis of the deposited data

How the results depend on the processing

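None of the 35 genes was called under any of the 12 alternatives, and the median log2 fold changes of the role groups moved by less than the spread between replicates in each. The median of all 35 lay between -0.09 and 0.10 with single tumors left out, and that of the peroxisomal genes between -0.13 and 0.41. When single tumors were left out, the count of genes lower at an unadjusted p under 0.05 ran from 0 to 6 and the count higher from 0 to 2, and the genes whose groups did not overlap ran from 1 to 9 downward and from 0 to 5 upward. The highest counts downward came without Prmt3f/f replicate 7 and those upward without Prmt3LKO replicate 93, the tumors most often lowest in these same genes. With library size without TMM, 0 genes did not overlap downward, since Vnn1 then overlapped, and with limma-voom 0 genes were higher at an unadjusted p under 0.05, since that of Acaa1a was 0.0503. The cause was not tested. Prmt3 had an adjusted p of 0.00429 with DESeq2.

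Of the 35 genes and Prmt3, 13 kept the direction of their log2 fold change in all alternatives and 23 did not, the largest of the latter being 0.41 for Ehhadh. Values on the other side of 0 were 0.00056 for Etfb with DESeq2. Without TMM they were -0.017 for Hadha, -0.027 for Decr2 and -0.011 for Fabp1. With no filter they were -0.0016 for Hadha and -0.0041 for Decr2, and with a mean of at least 1 CPM -0.0024 for Hadha and -0.0027 for Decr2. With limma-voom they were 0.012 for Etfb, -0.0063 for Decr2, 0.038 for Acsl1 and 0.013 for Ppara, and on FPKM with a pseudocount of 1, -0.037 for Decr2 and -0.0073 for Fabp1. When single tumors were left out, the log2 fold change ran from -0.071 to 0.28 for Acaa2, from -0.31 to 0.10 for Acad11, from -0.22 to 0.059 for Acadl, from -0.12 to 0.067 for Acadm, from -0.18 to 0.28 for Acads, from -0.024 to 0.38 for Acadvl, from -0.58 to 0.091 for Acsl1, from -0.074 to 0.0498 for Bdh1, from -0.21 to 0.16 for Cd36, from -0.066 to 0.23 for Decr1, from -0.18 to 0.16 for Decr2 and from -0.22 to 0.084 for Ech1. In the same way it ran from -0.014 to 0.25 for Eci1, from -0.071 to 0.71 for Ehhadh, from -0.15 to 0.12 for Etfb, from -0.059 to 0.22 for Etfdh, from -0.12 to 0.077 for Fabp1, from -0.0398 to 0.22 for Hadh, from -0.17 to 0.097 for Hadha, from -0.12 to 0.20 for Hadhb, from -0.26 to 0.13 for Plin2, from -0.45 to 0.23 for Ppara and from -0.26 to 0.15 for Slc25a20. No paired analysis was possible because the replicate numbers of the 2 groups are not shared. The 95% intervals of 7 of the 35 genes reached beyond 2-fold with 3 tumors in each group, and the lowest count behind any value of Acot1, Acot2 and Fgf21 was 27.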
